A study of Homo sapiens with 4 samples.

Results

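The 2 libraries of NTERA2 cells labelled LacZ (replicates 1 and 3) were described here, out of 4 libraries in all. They were chosen by their labels alone. Every one of the 26364 gene rows of each library was used, as a share of the library's total count (CPM, counts scaled to a sum of 1000000 per library) and, wherever genes are compared with each other, as CPM per kb of the exon length in the files. NTERA2 is a human embryonal carcinoma line, grown here as clone CRL-1973 in high-glucose DMEM with fetal bovine serum and antibiotics. The genotype field of both libraries reads BEND3 LacZ, next to a second group labelled sh60 that was not compared here. LacZ, a bacterial gene, was read as the control of a knockdown of BEND3, a BEN-domain chromatin protein, although the labels do not spell that out. How and when a construct was given was not stated in the sources used here, and unmodified parental cells were not analysed here, so the resting state described is that of 1 clone carrying whatever LacZ stands for. The labels do not say that the replicates were separate cultures, so the spread between them may be technical.

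Total RNA was taken with a column kit and made into stranded libraries of polyadenylated RNA, read from a single end. Replicate 1 held 42538561 counts and replicate 3 held 30338285. A single count was therefore worth 0.0235 CPM in replicate 1 and 0.0330 CPM in replicate 3, and a count of 0 allows a level of up to 3 counts, or 0.0705 and 0.0989 CPM. A gene was called on at 1 CPM or more in both libraries, silent at 0.1 CPM or less in both, and low otherwise. By this rule 13583 genes were on (51.5% of all rows), 3829 were low (14.5%) and 8952 were silent (34.0%). All rows include noncoding genes. Of 19002 protein-coding genes 67.2% were on and 3718 were silent. Counts of members on or silent in the lists below are to be read beside these shares, and several lists lie near them. No reads were counted in either library for 6245 genes, or 23.7% of the rows.

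Embryonal carcinoma cells are the malignant counterpart of the pluripotent cells of the early embryo. Their state rests on a circuit of transcription factors, with OCT4 (the product of POU5F1), SOX2 and NANOG at its centre, and NODAL, FGF and WNT signals decide whether that circuit is kept or gives way to mesoderm, endoderm or ectoderm. The parent line of NTERA2 came from a lung metastasis of a testicular germ cell tumour, and the clone is widely used because retinoic acid turns it into neurons.

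The 5 markers of this cell type were on in both libraries. POU5F1 (chr6:31132114-31138470, hg19) had 925 and 947 CPM. SOX2 (chr3:181429712-181432223) had 119 and 122 CPM and NANOG (chr12:7941992-7948657) 106 and 109 CPM. The replicates of these 3 factors of the core circuit were close. LIN28A (chr1:26737269-26756219), an RNA-binding protein gene, had 1400.5 and 1439.9 CPM. DNMT3B (chr20:31350191-31397162), a de novo DNA methyltransferase gene, had 871 and 948 CPM. BEND3 itself (chr6:107386385-107435636) was on in both LacZ libraries, at 68.1 and 78.6 CPM and a mean of 11.02 ± 1.11 CPM per kb (SD, n = 2). The labels name the cell type as an ES-derived lung carcinoma, and markers of lung epithelium were checked against that. Of 13 such markers 2 were on and 8 were silent, and their summed level was 21.2 and 22.8 CPM. Both SFTPB and SCGB1A1, which encode secreted proteins of the distal lung and airway, had 0 counts in either library, and the lung transcription factor gene NKX2-1 stood at 0.0235 and 0 CPM. The markers on were SCGB3A2, a secretoglobin gene, with 15.1 and 16.02 CPM, and AGER, with 4.94 and 5.70 CPM. The line is called by its name, NTERA2, in what follows, since most lung markers were silent and the pluripotency markers were on.

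Ribosomal protein and housekeeping genes headed the ranking. The 10 genes of highest CPM held 4.42% of the counts, the 100 highest held 16.8% and the 1000 highest held 49.6%. A total of 79 genes had a mean of 1000 CPM or more, 2401 had 100 or more and 9725 had 10 or more. GAPDH, a glycolytic enzyme gene, was the highest at 1.06% of all counts in replicate 1 and 1.10% in replicate 3. Next by mean CPM, with overlapping replicates for the first pair, came EEF1A1, a translation elongation factor gene, with 5802 and 5747 CPM, the actin gene ACTB with 5893 and 5628 CPM and the chaperone gene HSPA8 with 3698 and 3692 CPM. Per kb, ribosomal protein genes took 31 of the top 50 places and 11 of the top 20, and their median level over 86 rows was 672 CPM per kb, against 0.622 over all genes. Of those rows 80 were on and 5 were silent, and together they held 5.49% and 5.71% of the counts. RPL21, whose many processed copies share its sequence, was listed with a single count in replicate 3 and 0 in replicate 1. Reads that map to several places were not counted, so a level of a gene with near-identical copies is a lower reading. The place above GAPDH per kb belonged to MIR6087, a row 49 bases long with 265 and 319.7 CPM. Of 2231 rows shorter than 200 bases only 35 were on.

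**Figure D1:**
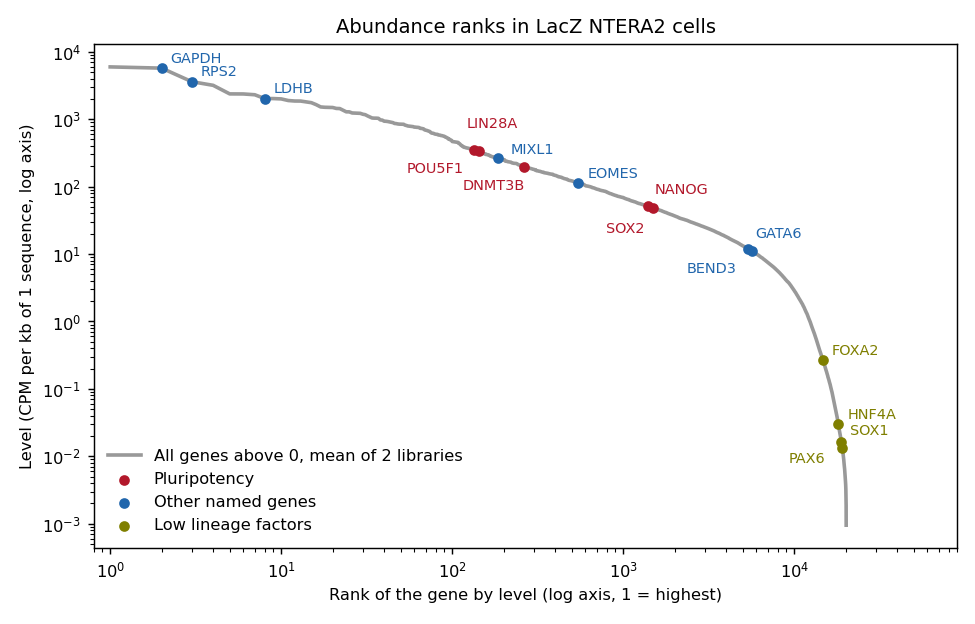
Level of every gene above 0 in CPM per kb (mean of the 2 LacZ libraries, log axis) against its rank (log axis), with named genes marked; exon length is taken on 1 sequence where a gene is listed on several. LIN28A ranked 134, POU5F1 144 and DNMT3B 264, while NANOG and SOX2 lay near 50 CPM per kb and the factors PAX6, SOX1 and HNF4A lay at the foot of the curve.

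All 18 core pluripotency transcription factors of the list were on, where 51.5% of all genes were. Their median level was 32.6 CPM per kb, and that of all genes on was 7.86. The Length of POU5F1 is summed over 7 sequences, chromosome 6 and its alternate haplotypes, to 19454 bases, which gives 47.6 and 48.7 CPM per kb. Over its 2768 exon bases on chromosome 6 alone the level of POU5F1 was 338 ± 5.45 CPM per kb (SD, n = 2), the highest of the list, and this value is used for its order. ZIC2, a zinc finger factor gene, followed with 82.2 and 83.6 CPM per kb. MYCN, a MYC family oncogene, had 61.4 and 64.04 CPM per kb and SALL1, a spalt-like factor gene, had 57.9 and 63.7 CPM per kb, and these ranges overlapped. NANOG came next with 50.4 and 52.1 CPM per kb, and then SOX2 with 47.5 and 48.4 CPM per kb, without overlap. SALL4, a further spalt-like factor gene, had 39.5 and 39.9 CPM per kb and MYC had 39.8 and 36.8 CPM per kb. At the lower end PRDM14, a repressor gene of germ cells and naive cells, had 18.4 and 20.6 CPM per kb, OTX2, a factor gene of the epiblast and forebrain, had 13.4 and 10.3 CPM per kb and ZFP42 (REX1), a marker of naive cells, had 2.10 and 2.14 CPM per kb.

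The 28 other pluripotency genes were also all on, with a median of 47.3 CPM per kb. LIN28A, which blocks maturation of let-7 microRNAs, had 349 and 359 CPM per kb. PODXL, which carries the TRA-1-60 and TRA-1-81 epitopes, had 286 and 273 CPM per kb, and CD24, a surface glycoprotein gene, had 197 and 213 CPM per kb. DNMT3B stood at 188 and 205 CPM per kb and L1TD1, a LINE-1 derived RNA-binding protein gene, at 151 and 165 CPM per kb. DPPA4, a chromatin factor gene of pluripotent cells, had 147 and 160.2 CPM per kb, and its partner DPPA2 had 3.57 and 2.96 CPM per kb. The replicates of both were well apart from the other's, with DPPA4 higher. ESRG, a noncoding RNA of pluripotent cells, had 170.2 and 194 CPM per kb. TERT, the catalytic subunit gene of telomerase, was at the bottom of the list with 1.33 and 1.22 CPM per kb.

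Factors tied to the naive state, which precedes implantation, were mixed. Of 14 listed genes 9 were on, 3 were low and 2 were silent, with a median of 2.22 CPM per kb. The share on was 64.3%, where 51.5% of all genes and 67.2% of protein-coding genes were on. TFAP2C, a factor gene shared by naive and germ cells, had 20.1 and 20.8 CPM per kb. GBX2, a homeobox factor gene, had 16.2 and 22.2 CPM per kb and TBX3, a T-box repressor gene, 18.03 and 14.5 CPM per kb. KLF4 reached 5.03 and 4.93 CPM per kb and ESRRB, an orphan receptor gene, 1.89 and 2.01 CPM per kb. Both KLF17, a factor gene of the human naive state, and DPPA5, an RNA-binding protein gene, were silent, KLF17 with 0.0470 and 0 CPM and DPPA5 with 0 counts in either library. DNMT3L, a cofactor gene of the de novo methyltransferases, was low at 0.635 and 0.527 CPM.

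Factors of the primitive streak and mesoderm were on beside the pluripotency circuit. Of 24 listed genes 20 were on, 4 were low and 0 were silent, with a median of 4.42 CPM per kb. MIXL1, a homeobox factor gene of the streak, had 258 and 273 CPM per kb, above NANOG in both libraries. EOMES, a T-box factor gene of mesendoderm, had 109 and 118 CPM per kb. EVX1, a homeobox factor gene of the posterior streak, had 43.4 and 42.5 CPM per kb and TBXT (brachyury, listed in the files under the symbol T) had 38.02 and 45.6 CPM per kb. MESP1, a factor gene of early cardiac mesoderm, had 16.6 and 15.6 CPM per kb and HAND1, of lateral mesoderm and trophoblast, had 16.6 and 10.9 CPM per kb. Among genes used in later mesoderm, RUNX1, of blood, had 4.56 and 3.49 CPM per kb and TWIST1, of mesenchyme, 5.18 and 3.78 CPM per kb. TBX5, a heart and limb factor gene, had 2.16 and 1.59 CPM per kb and ISL1, of the second heart field, 0.666 and 0.473 CPM per kb. TAL1, also of blood, was low at 0.0415 and 0.0969 CPM per kb. These are levels of pooled cells, in which fewer cells of a type and less RNA per cell cannot be told apart.

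Of 16 endoderm factors 8 were on, 4 were low and 4 were silent. Over all rows 51.5% were on and 34.0% silent, and over protein-coding genes 67.2% were on. CER1, a secreted NODAL and BMP antagonist of the anterior endoderm, had 33.7 and 25.2 CPM per kb. Of the caudal homeobox genes, CDX1 had 22.7 and 23.9 CPM per kb. CDX2 had 8.07 and 12.03 CPM per kb, lower in replicate 1 than in replicate 3. GATA6 had 13.1 and 10.6 CPM per kb and GATA4 6.90 and 5.98 CPM per kb, both zinc finger factor genes of endoderm and heart. FOXA2, a pioneer factor gene of definitive endoderm, had only 0.234 and 0.303 CPM per kb, and SOX17 had 0.580 and 0.238 CPM per kb. HNF4A, a factor gene of liver, stood at 0.0301 and 0.0301 CPM per kb, and the pancreas factor gene PDX1 had 0 counts in either library.

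Of 25 neural genes 10 were on, 11 were low and 4 were silent, and their median of 0.208 CPM per kb lay under that of all genes, 0.622. TUBB3, a neuronal beta-tubulin gene, had 75.04 and 64.95 CPM per kb and NES, an intermediate filament gene of neural progenitors, had 70.2 and 69.2 CPM per kb. Factor genes of early neurectoderm were on too. LHX2 had 16.8 and 19.02 CPM per kb and SOX11 13.3 and 13.1 CPM per kb. SOX3 had 12.8 and 12.3 CPM per kb and POU3F1 11.4 and 10.3 CPM per kb. In contrast, SOX1 with 0 and 0.0321 CPM per kb and PAX6 with 0.0124 and 0.0139 CPM per kb, factor genes of committed neural progenitors, lay at a few counts a library. NEUROD1, a factor gene of differentiating neurons, had 0 counts in both. Neural crest and border factors included MSX1 at 89.5 and 85.5 CPM per kb, the related MSX2 at 29.97 and 26.9 CPM per kb and SNAI2, a repressor gene of migrating crest, at 18.3 and 16.1 CPM per kb. By contrast, the committed crest gene SOX10 was low at 0.172 and 0.161 CPM per kb. Of 13 crest genes 8 were on (61.5%, where 51.5% of all genes and 67.2% of protein-coding genes were) and 1 was silent.

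Of 11 trophoblast genes 7 were on (63.6%, where 51.5% of all genes and 67.2% of protein-coding genes were) and 3 were silent. TEAD4, a factor gene of the first trophectoderm, had 62.4 and 58.98 CPM per kb, as the highest of them. The zinc finger factor gene GATA3 had 11.1 and 7.48 CPM per kb and GATA2 3.09 and 2.50 CPM per kb. ELF5, a factor gene of trophoblast stem cells, had 0 counts in either library, and GCM1, of the syncytium, had 0.00851 and 0 CPM per kb. Germ cell genes were mostly silent, 9 of 16, with 3 on. PIWIL2, a PIWI protein gene, was the highest at 21.02 and 20.7 CPM per kb. ZP3 and DAZL came next, at means of 0.862 and 0.736 CPM per kb. DDX4 (VASA) had 0.00794 and 0 CPM per kb, and NANOS2 and SOHLH1 had 0 counts in both. Of 9 muscle genes 4 were on (44.4%), among them DES, a muscle intermediate filament gene, at 7.30 and 9.31 CPM per kb. Of the master regulators, MYOD1 had 0.0260 and 0 CPM per kb, MYOG 0.169 and 0.108 CPM per kb and MYF6 0 counts in both.

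**Figure D2:**
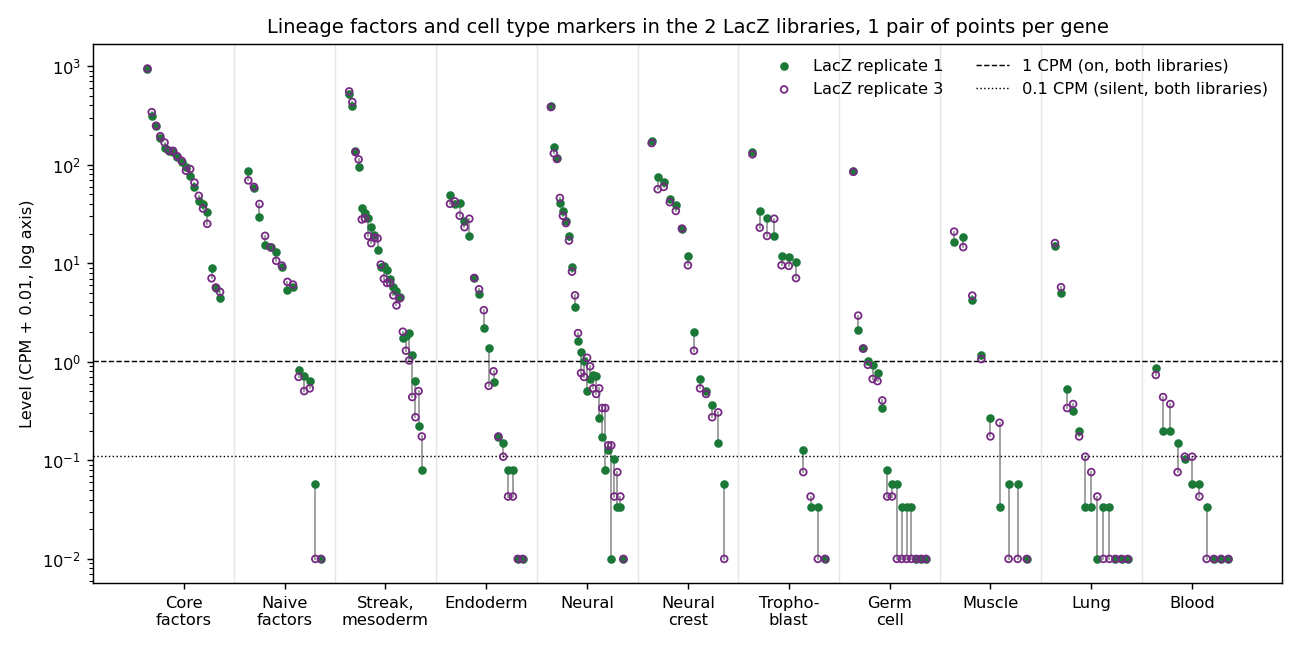
Levels of the members of 11 lists in LacZ replicates 1 (filled) and 3 (open), as CPM plus 0.01 on a log axis, each pair of points being a gene, with lines at 1 and 0.1 CPM. Every core factor lies above the upper line, and the naive, endoderm, neural, trophoblast, germ cell, muscle, lung and blood lists reach down to genes at 0.

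Families of developmental factors were divided. All 39 HOX genes had a row, and 13 were on (33.3%, where 67.2% of protein-coding genes were), 17 were low and 9 were silent. HOXD13, the most posterior gene of its cluster, had 6.84 and 7.41 CPM per kb. HOXD11 had 5.69 and 5.68 CPM per kb and HOXD10 5.17 and 4.62 CPM per kb. HOXB1, an anterior gene, had 3.48 and 4.19 CPM per kb. Of the HOXC genes HOXC6 had 0.388 and 0.220 CPM per kb and HOXC13 0.206 and 0.289 CPM per kb, and HOXC10, HOXC11 and HOXC12 had 0 counts in both libraries. Of 19 SOX genes 13 were on (68.4%) and 0 were silent, with SOX4 at 44.5 and 46.5 CPM per kb, next to SOX2. Of 6 GATA genes 5 were on (83.3%), and the blood factor gene GATA1 had 0 counts in both. Of 9 PAX genes 3 were on (33.3%), among them PAX5 with 0.448 and 0.577 CPM per kb. Of 50 forkhead genes 27 were on (54%), led by FOXM1, a cell cycle factor gene, at 149 and 158 CPM per kb. Of 529 genes with ZNF symbols 481 were on and 26 were silent, in contrast to 378 olfactory receptor genes, of which 1 was on (OR3A2), 370 were silent and 347 had 0 counts in both.

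The promoters of 3 markers that were on and 3 lineage factors with 0 counts are shown so that their letters can be compared, since CG-rich and CG-poor promoters occurred in both classes. The sequences are RefSeq's, on GRCh38, 250 bases before to 50 bases after the start, and CG is in capitals. SOX2 (chr3:181711675-181711974, plus strand), NANOG (chr12:7789152-7789451, plus strand) and DNMT3B (chr20:32779602-32779901, plus strand) were on. NEUROD1 (chr2:181680468-181680767, minus strand), MYF6 (chr12:80707384-80707683, plus strand) and ELF5 (chr11:34511675-34511974, minus strand) were silent.
SOX2: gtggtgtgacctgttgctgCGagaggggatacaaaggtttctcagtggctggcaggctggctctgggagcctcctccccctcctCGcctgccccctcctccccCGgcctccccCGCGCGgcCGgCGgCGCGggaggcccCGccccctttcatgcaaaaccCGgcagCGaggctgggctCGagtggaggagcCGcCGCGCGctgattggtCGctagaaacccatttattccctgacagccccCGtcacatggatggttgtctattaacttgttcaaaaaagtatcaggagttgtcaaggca
NANOG: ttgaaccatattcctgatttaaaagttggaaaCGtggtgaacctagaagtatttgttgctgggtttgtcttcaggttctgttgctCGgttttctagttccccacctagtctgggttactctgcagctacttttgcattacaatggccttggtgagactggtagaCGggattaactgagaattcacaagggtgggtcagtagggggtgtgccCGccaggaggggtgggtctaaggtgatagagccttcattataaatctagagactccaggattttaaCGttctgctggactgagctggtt
DNMT3B: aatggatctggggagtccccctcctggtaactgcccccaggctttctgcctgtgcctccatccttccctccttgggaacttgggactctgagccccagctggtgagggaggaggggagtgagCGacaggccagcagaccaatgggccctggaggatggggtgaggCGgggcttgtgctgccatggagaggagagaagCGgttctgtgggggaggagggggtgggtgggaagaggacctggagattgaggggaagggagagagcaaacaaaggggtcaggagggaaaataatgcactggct
NEUROD1: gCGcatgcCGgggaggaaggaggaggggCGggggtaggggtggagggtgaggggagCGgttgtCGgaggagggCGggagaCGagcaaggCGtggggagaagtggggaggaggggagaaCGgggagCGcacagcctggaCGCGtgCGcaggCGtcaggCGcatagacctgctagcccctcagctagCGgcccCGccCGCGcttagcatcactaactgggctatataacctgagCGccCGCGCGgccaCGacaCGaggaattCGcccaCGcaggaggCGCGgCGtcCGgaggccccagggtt
MYF6: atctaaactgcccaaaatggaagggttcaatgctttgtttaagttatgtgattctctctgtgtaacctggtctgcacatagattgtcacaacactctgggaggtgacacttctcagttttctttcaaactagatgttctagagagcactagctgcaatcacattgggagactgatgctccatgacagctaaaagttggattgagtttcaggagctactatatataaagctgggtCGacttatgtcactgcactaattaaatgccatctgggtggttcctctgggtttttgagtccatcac
ELF5: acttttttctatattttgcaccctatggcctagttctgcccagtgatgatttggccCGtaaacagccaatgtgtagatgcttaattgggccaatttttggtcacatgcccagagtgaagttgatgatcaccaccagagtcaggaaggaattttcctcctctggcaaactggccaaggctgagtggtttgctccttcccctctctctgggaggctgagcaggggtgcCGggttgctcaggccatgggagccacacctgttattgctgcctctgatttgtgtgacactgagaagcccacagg

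SOX2 held 20 CG and NEUROD1 31, although SOX2 was on and NEUROD1 had no reads. NANOG with 5, ELF5 with 2 and MYF6 with 1 were poor in CG on both sides. The stretch listed for DNMT3B held 3 CG. It may lie inside the gene rather than at its first start, so it was not read as a CG-poor promoter. Over all protein-coding genes with a single listed start, CG content followed the class. The median number of CG in the 300 bases was 27 in 7369 genes on, 12 in 1401 genes low and 4 in 2413 genes silent. Median GC was 66%, 60% and 50.3% in that order, and the median observed over expected CpG was 0.857, 0.525 and 0.249. The letters TATAAA, searched on both strands with no exclusion of overlaps, occurred in 5.10% of promoters on, 13.1% of those low and 24.4% of those silent, and in 10.4% of all 13139 matched promoters. NANOG and MYF6 had 1 match each and the 4 others shown had 0. The 8 silent lineage factors with a promoter in the table held both kinds, with a median of 20.5 CG and quartiles of 1.75 and 34.25. The 11 low factors had a median of 21 CG and the 24 on 24.5. Core and other pluripotency genes, all of them on, had 19 promoters in the table. Their median was 14 CG, with quartiles of 5 and 28, and their median observed over expected CpG was 0.546. Both medians lay nearer to those of the low class than to those of the class on. Silent keratin genes (26 promoters) had a median of 2 CG with TATAAA in 65.4%, and olfactory receptor genes (286 promoters) had a median of 1. The classes differ in gene content, and whether their composition bears on their level was not tested. No promoter of POU5F1, LIN28A or PDX1 was printed.

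Markers that pathologists use for germ cell tumours were read next. TNFRSF8, which encodes CD30, a marker of embryonal carcinoma, had 15.8 and 16.3 CPM per kb, and GPC3, a proteoglycan gene used as a marker of yolk sac tumour, had 34.98 and 41.9 CPM per kb. PDPN, the gene for the D2-40 antigen of seminoma, had 29.8 and 27.8 CPM per kb. Members tied to other tumour types were thus found on both sides. KIT, also used for seminoma, had 2.56 and 2.50 CPM per kb, and SOX17, also of seminoma, 0.580 and 0.238 CPM per kb. AFP, a product of yolk sac tumour, was at 0.188 and 0.132 CPM, and the choriogonadotropin subunit gene CGA at 0 and 0.0659 CPM. CGB5, for the other subunit, had 0 counts in both, but it has near-identical copies whose shared reads are not counted. In all 5 of 14 such markers were on, 5 were low and 4 were silent.

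Markers of other cell types were read for the whole list. No blood marker of 11 was on, 7 were silent, and their summed level was 1.58 and 1.81 CPM. The leukocyte antigen gene PTPRC and the globin gene HBB had 0 counts in both libraries. Of 8 endothelial markers 6 were on with a summed level of 108 and 92.7 CPM, most of it from TEK, the angiopoietin receptor gene, at 65.2 and 55.8 CPM. KDR, ESAM, VWF, CDH5 and ERG were on too, at means of 4.61, 1.20, 0.633, 0.552 and 0.227 CPM per kb. The members not on were PECAM1, low at 0.0705 and 0.132 CPM, and the endothelial tight junction gene CLDN5, silent at 0.0705 and 0 CPM. Of 12 fibroblast markers 11 were on, and their sum of 1475 and 1189 CPM was mostly VIM, the vimentin gene, at 933 and 743 CPM. FAP, the fibroblast activation protein gene, was silent at 0.0940 and 0.0659 CPM, DCN (decorin) had 1.86 and 1.58 CPM and COL1A1 had 140.0 and 84.1 CPM. Whether a second cell type contributed was not tested. Epithelial genes included the simple keratin genes KRT18 at 632 and 611 CPM per kb and KRT8 at 602 and 561 CPM per kb, the tight junction gene CLDN6 at 173 and 196 CPM per kb and the cadherin gene CDH1 at 26.1 and 28 CPM per kb. The keratins of stratified epithelium KRT5 and KRT14 were silent, and 38 of 55 keratin genes were silent in all.

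**Figure D3:**
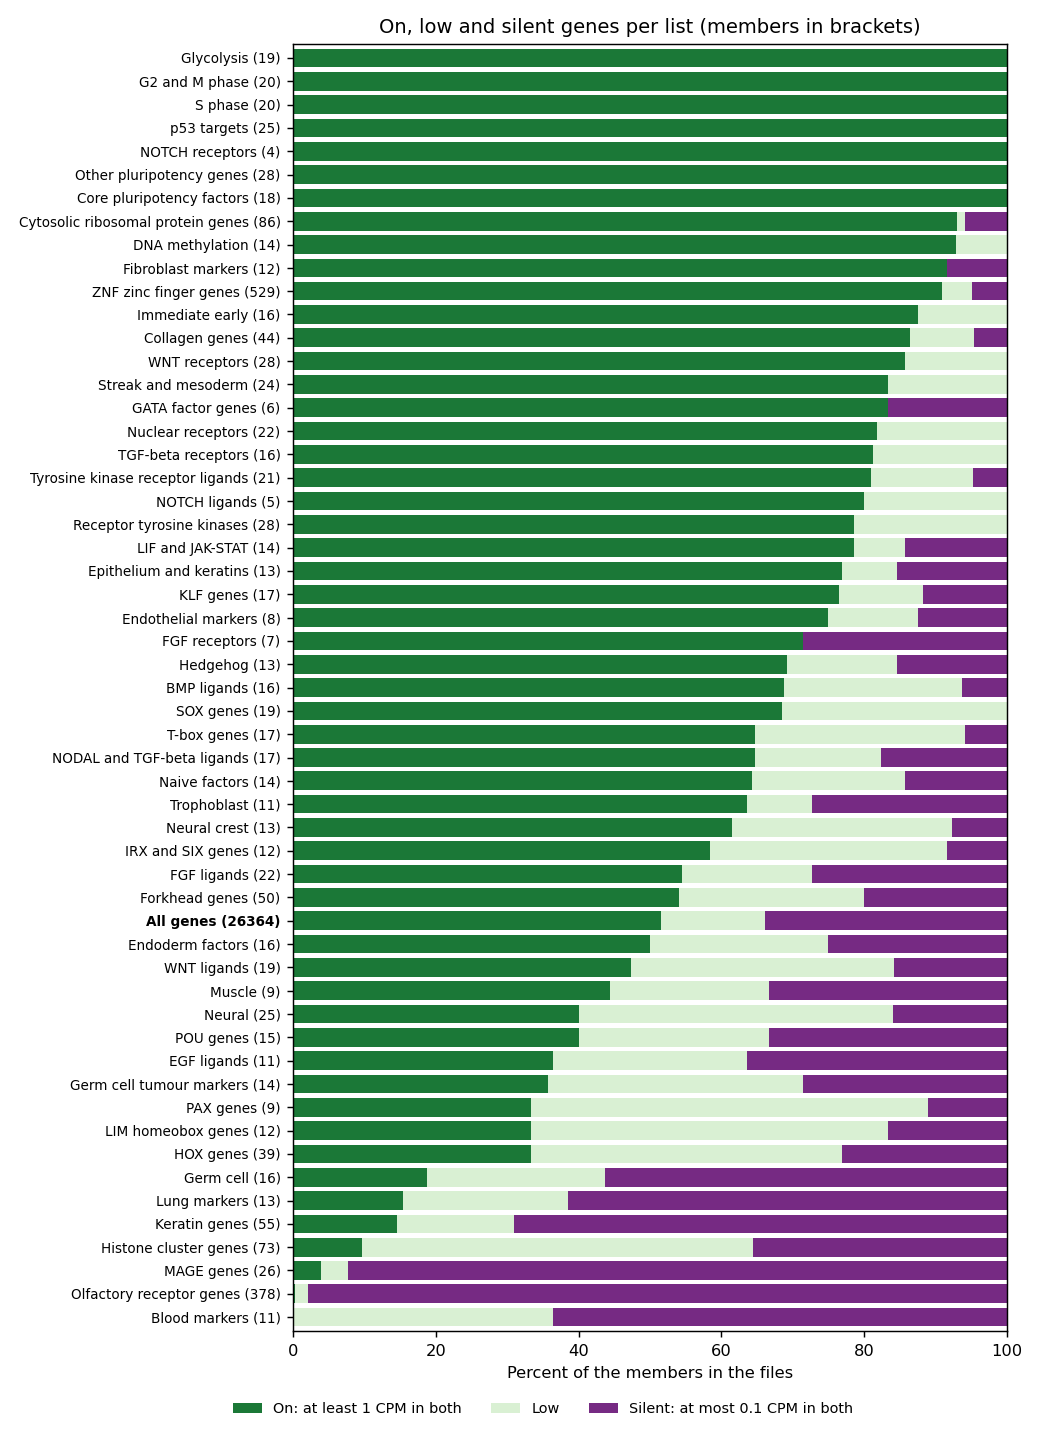
Share of the members of each gene list that were on, low or silent in the 2 LacZ libraries (percent of members, number of members in brackets), with all genes for reference. Core pluripotency factors and cell cycle genes are on throughout, and 8 of 13 lung markers, 7 of 11 blood markers and 9 of 16 germ cell genes are silent.

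Ligands, antagonists and receptors of the NODAL and activin branch included genes that were on and genes that were not. NODAL, the ligand that supports pluripotency and induces mesendoderm, had 19.6 and 23.04 CPM per kb. GDF3, a related ligand gene, had 249 and 259 CPM per kb, more than every other member of the list of ligands. The feedback antagonist gene LEFTY2 had 18.8 and 16.5 CPM per kb, and its neighbour LEFTY1 had 11.6 and 8.96 CPM per kb. FST, the activin-binding follistatin gene, had 90.6 and 102 CPM per kb, while the activin subunit gene INHBA was low at 0.908 and 0.288 CPM per kb. TDGF1 (CRIPTO), the coreceptor gene for NODAL, had 50.01 and 54.5 CPM per kb, ACVR2B, a type II receptor gene, 21.5 and 22.3 CPM per kb and ACVR1B, the type I receptor gene, 9.81 and 10.4 CPM per kb. ACVR1C, the gene for the other NODAL type I receptor, was much lower at 0.471 and 0.566 CPM per kb. GDF1 had 0 counts, but its row lies over that of CERS1 on the same strand and reads shared by both are not counted, so its level is not known. In all 11 of 17 NODAL and TGF-beta ligands and antagonists were on (64.7%, near the 67.2% of protein-coding genes) and 3 were silent.

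Of 16 BMP ligands and antagonists 11 were on (68.75%, near the 67.2% of protein-coding genes) and 1 was silent. BMP4, a ligand that induces mesoderm and trophoblast, had 35.01 and 29.4 CPM per kb. BMP2, its closest relative, had 23.3 and 17.9 CPM per kb and BMP7 11.2 and 10.6 CPM per kb. BAMBI, a decoy receptor gene, was the highest of the list at 115 and 101 CPM per kb. The antagonist genes GREM1 at 6.49 and 4.55 CPM per kb and NOG at 3.43 and 2.28 CPM per kb were on. Of 16 receptors of the superfamily 13 were on and 0 were silent. Among them BMPR1A, a type I receptor gene, had 23.7 and 23.3 CPM per kb, and BMPR1B, its close relative, 0.866 and 0.837 CPM per kb. TGFBR1 had 16.9 and 15.2 CPM per kb and TGFBR2, the type II receptor gene that binds TGF-beta, 1.999 and 1.45 CPM per kb.

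Of 22 FGF genes 12 were on (54.5%, where 51.5% of all genes and 67.2% of protein-coding genes were) and 6 were silent. FGF19, an endocrine FGF gene, was the highest at 40.5 and 48.3 CPM per kb, while KLB, the gene for the coreceptor through which FGF19 acts in liver, had 0 counts in both libraries and its relative KL was silent at 0.00470 and 0.0198 CPM per kb. FGF8 had 16.6 and 14.3 CPM per kb, FGF2 11.1 and 10.2 CPM per kb and FGF4, a target of OCT4 and SOX2, 8.63 and 8.56 CPM per kb. FGF6, FGF16, FGF20 and FGF21 had 0 counts in both. FGFR1 was the main receptor gene at 81.6 and 88.04 CPM per kb, above every other FGF receptor gene. FGFR3 followed at 21.4 and 18.8 CPM per kb, then FGFR2 at 11.7 and 12.4 CPM per kb and FGFR4 at 7.63 and 7.97 CPM per kb. No neighbours in this order overlapped.

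Of 19 WNT ligands 9 were on (47.4%, where 51.5% of all genes and 67.2% of protein-coding genes were) and 3 were silent. WNT5B had 59.3 and 59.9 CPM per kb and WNT5A 36.8 and 33.5 CPM per kb. WNT3, which induces the streak, had 18.6 and 19.8 CPM per kb. WNT5B and WNT5A are mainly ligands of the noncanonical branch, and receptor genes of that branch were on as well. RYK had 48.7 and 47.8 CPM per kb. ROR1 had 18.7 and 19.1 CPM per kb, and ROR2 had 14.8 and 15.5 CPM per kb. Of 28 receptors, secreted regulators and R-spondins 24 were on and 0 were silent. The secreted inhibitor gene SFRP2 was the highest of them at 152 and 171 CPM per kb, and DKK1, an inhibitor gene of the canonical branch, had 24.3 and 25.3 CPM per kb. FZD7, a frizzled gene of pluripotent cells, had 33.1 and 33.2 CPM per kb and its coreceptor gene LRP6 25.9 and 25.3 CPM per kb.

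Every NOTCH receptor gene was on, NOTCH3 at 31.2 and 29.7 CPM per kb, NOTCH2 at 19.8 and 18.4 CPM per kb and NOTCH1 at 12.9 and 12.8 CPM per kb. NOTCH4, whose row is also listed on several sequences, was on at 1.39 and 2.21 CPM. Of 5 ligands 4 were on, led by JAG1 at 17.1 and 16 CPM per kb and DLL3, which acts within the cell as an inhibitor, at 12.97 and 12.5 CPM per kb. HES5, a NOTCH target gene of neural progenitors, was silent at 0.0235 and 0.0330 CPM. In the hedgehog list the receiving side was on without a ligand: SMO, the signal transducer gene, had 24.02 and 23.98 CPM per kb, PTCH1, the receptor gene, 14.9 and 15.4 CPM per kb and GLI3 11.4 and 12.1 CPM per kb. The ligand gene SHH was low at 0.134 and 0.125 CPM per kb, IHH was silent and DHH had 0 counts in both.

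Of 28 other receptor tyrosine kinase genes 22 were on and 0 were silent. ERBB2 had 26.98 and 28.03 CPM per kb and TYRO3, a receptor gene of the AXL family, 25.4 and 24.9 CPM per kb. PDGFRB had 16.3 and 13.96 CPM per kb, while the genes for its ligands were lower, PDGFB at 1.48 and 1.07 CPM per kb and PDGFD at 1.05 and 1.16 CPM per kb. PDGFA, whose product binds PDGFRA, had 25.3 and 27.02 CPM per kb, and PDGFRA had 3.47 and 3.41 CPM per kb. Of 21 ligands of these receptors 17 were on and 1 was silent. IGF1R had 14.96 and 13.6 CPM per kb, whereas IGF1 was silent with 0.0235 and 0.0330 CPM and IGF2 had 2.07 and 1.15 CPM. Reads where IGF2 overlaps the INS-IGF2 row are not counted, so that level is a lower reading. NTF3, the neurotrophin-3 gene, had 25.3 and 20.5 CPM per kb, and NTRK3, its receptor gene, only 0.601 and 0.271 CPM per kb. EGFR was at 1.28 and 1.23 CPM per kb, and of 11 EGF family ligands 4 were on, with TGFA at 3.77 and 3.96 CPM per kb and AREG and EREG silent.

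In the LIF and IL6 group, the signal transducer gene IL6ST had 8.41 and 6.80 CPM per kb, LIFR 2.93 and 2.46 CPM per kb and CNTFR, the ciliary neurotrophic factor receptor gene, 33.7 and 36.2 CPM per kb. STAT3 had 24.2 and 25.5 CPM per kb and JAK1 21.5 and 18.8 CPM per kb, and the ligand gene LIF had 1.43 and 1.21 CPM per kb. CNTF also had 0 counts, but its row lies within that of ZFP91-CNTF, so its level is not known either. Among 22 nuclear receptors 18 were on and 0 were silent. RARG, the retinoic acid receptor gene, had 18.1 and 16.7 CPM per kb, RARA 8.55 and 7.66 CPM per kb and RARB, itself a retinoid target gene, 0.808 and 0.455 CPM per kb. The partner receptor gene RXRA had 6.11 and 6.03 CPM per kb. NR2F6 was the highest with 60.7 and 61.03 CPM per kb and NR6A1 (GCNF), a repressor gene of POU5F1, had 31.1 and 34.9 CPM per kb. ESR1, the estrogen receptor gene, was low at 0.0236 and 0.00945 CPM per kb.

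**Figure D4:**
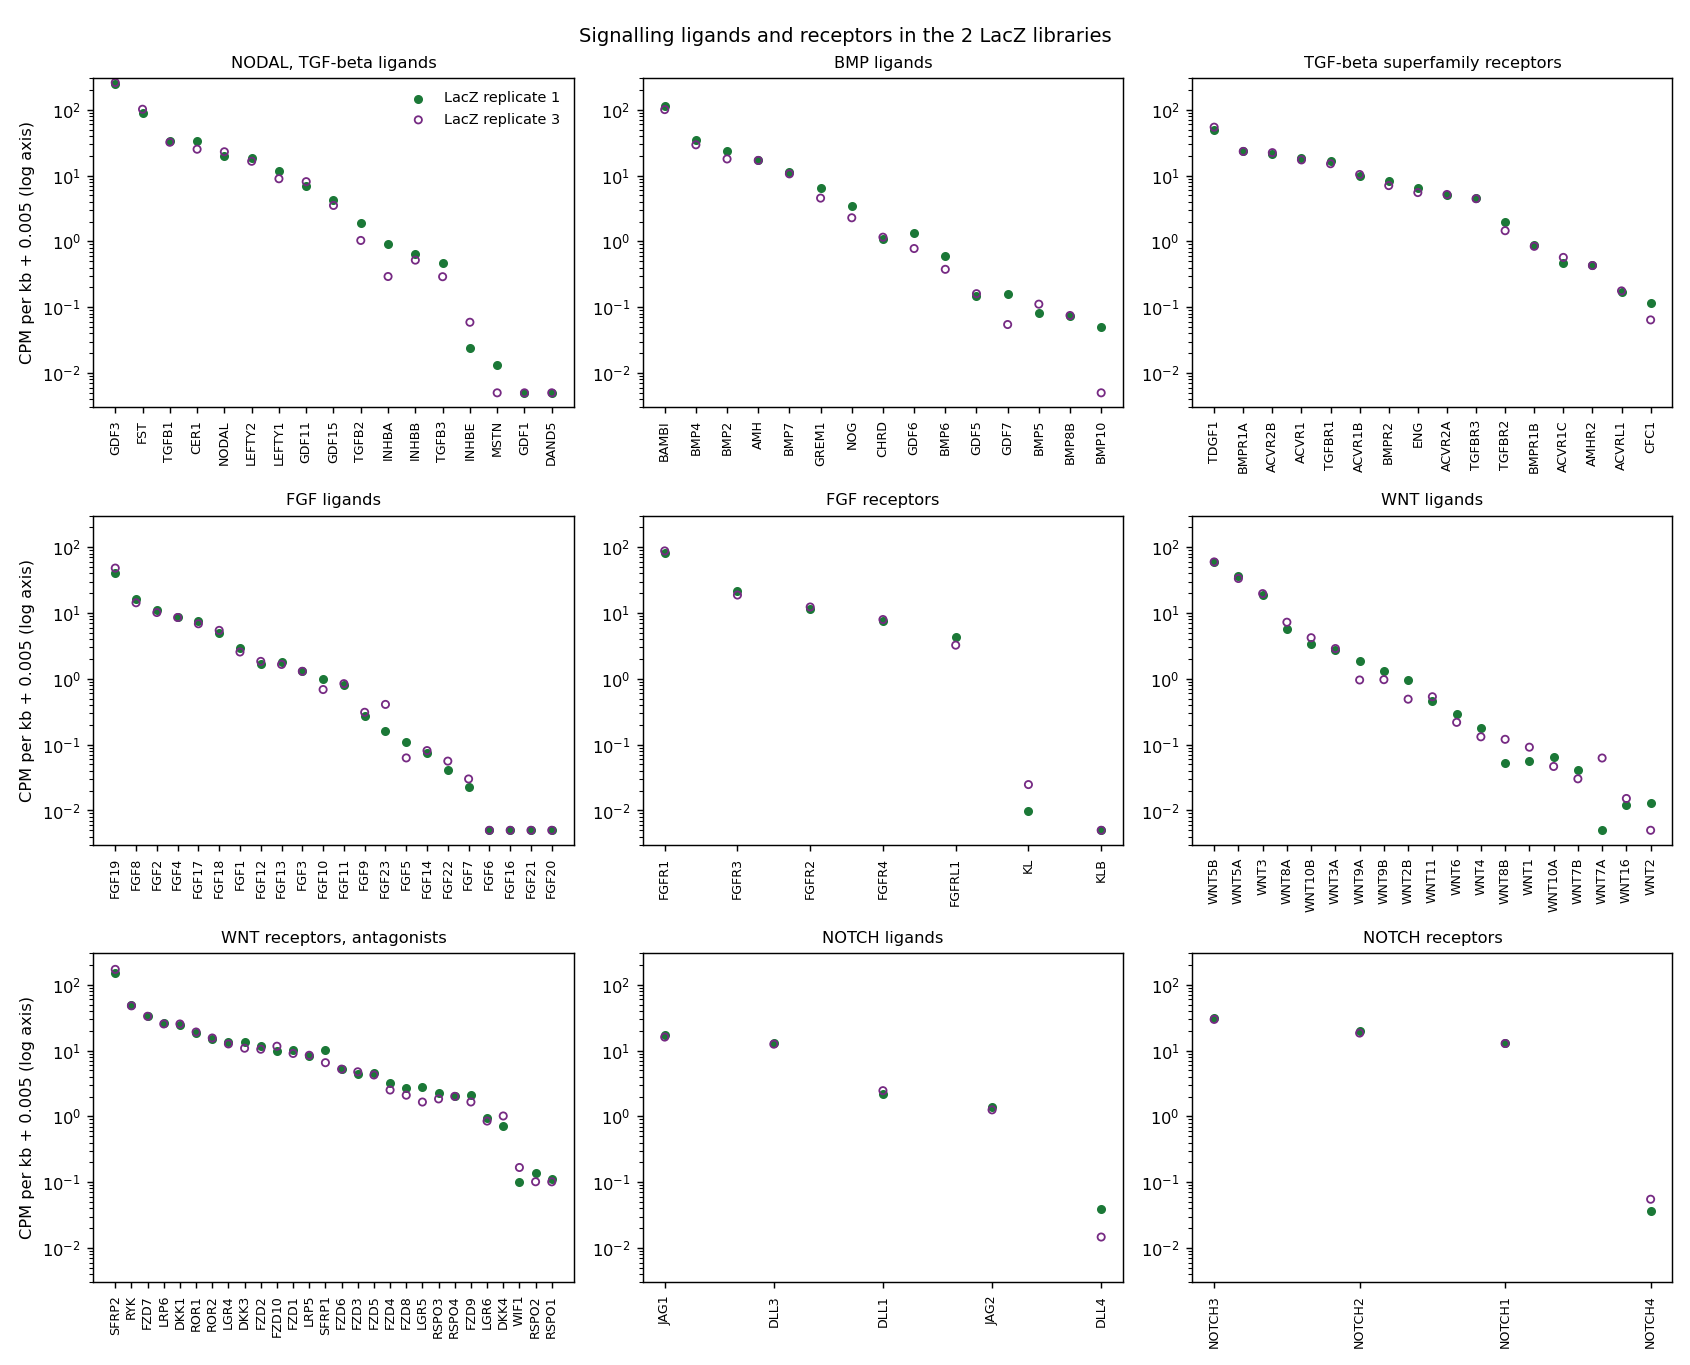
Levels of ligand, antagonist and receptor genes by pathway in LacZ replicates 1 and 3 (CPM per kb plus 0.005, log axis, 1 point per library). GDF3 at 249 and 259 CPM per kb is the highest ligand shown, FGFR1 at 81.6 and 88 is the highest FGF receptor, and KLB lies at 0 in both.

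Cell cycle genes were on throughout. All 20 S phase genes and all 20 G2/M genes were on, with medians of 67.9 and 73.5 CPM per kb. PCNA, the replication clamp gene, had 202 and 207 CPM per kb, CDC20, an activator gene of the anaphase-promoting complex, 218 and 226 CPM per kb and MKI67, the gene for the Ki-67 antigen, 40.4 and 42.7 CPM per kb. All 25 p53 target genes were on as well, with a median of 15.8 CPM per kb. CCNG1, a cyclin gene induced by p53, had 91.1 and 93.8 CPM per kb and MDM2, which degrades p53, 28.4 and 25.99 CPM per kb. All 19 glycolysis genes were on. LDHB, one of the lactate dehydrogenase genes, had 2024 and 2029 CPM per kb while LDHA, the subunit gene of many tumours, had 64.9 and 63.7 CPM per kb. LDHA has processed copies, and their part in its level was not tested. Of 16 immediate early genes 14 were on and 0 were silent, with MYC at 39.8 and 36.8 CPM per kb, FOS at 7.73 and 8.49 CPM per kb and EGR1 at 1.81 and 2.45 CPM per kb. Of the glucose transporter genes SLC2A3 had 624 and 569 CPM per kb and SLC2A1 159 and 146 CPM per kb.

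The DNA methylation list was on except for DNMT3L, 13 of 14 genes. DNMT3B at 188 and 205 CPM per kb exceeded DNMT1, the maintenance enzyme gene, at 76.6 and 76.5 CPM per kb and DNMT3A at 21.5 and 21.6 CPM per kb without overlap. TET1, which oxidises methylcytosine, had 8.13 and 7.87 CPM per kb and TET2 1.15 and 1.07 CPM per kb. Histone genes were low in these libraries of polyadenylated RNA, 7 of 73 on and 26 silent, and most transcripts of that family carry no poly(A) tail. Of 26 MAGE genes 1 was on, MAGEB3 at 2.18 and 2.06 CPM per kb, and 24 were silent, although MAGEA genes have near-identical copies whose reads are not counted. By RefSeq biotype, matched by symbol for 95.6% of rows, 67.2% of 19002 protein-coding genes and 14.5% of 2935 lncRNA genes were on. Protein-coding genes held 98.9% and 98.8% of the counts and lncRNA genes 0.496% and 0.519%. Among genes with LINC or -AS symbols LRRC75A-AS1 had 288 and 322 CPM and LINC00657 (NORAD) 272 and 258 CPM.

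The replicates were then set against each other over the 13766 genes with a mean of 1 CPM or more. The ratio of replicate 1 to replicate 3 had a median log2 of -0.0036 and an SD of 0.20 across genes, and 97.6% of genes were within 1.5-fold. Across genes, which are not independent replicates and share the same 2 libraries, Pearson's r of log2 CPM was 0.996 and Spearman's rho 0.997. In replicate 1 241 genes were higher by over 1.5-fold (1.75%), and in replicate 3 90 genes (0.654%), 331 in all (2.40%). The share past 1.5-fold was 14% at 1 to 2 CPM and 0.125% at 100 CPM or more. The exact 95% interval of the ratio, which covers counting error only, excluded 1 for 4044 genes (29.4%). Counts of the pair differed by more than counting error, with a chi-square per degree of freedom of 6.28 over genes with at least 20 counts, so they were counted as 2 libraries. The coefficient of variation between them was 5.74% by edgeR's common dispersion. With 2 libraries of 1 group no test of a gene was made.

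Several of the genes that differed most encode proteins of the extracellular matrix. Of the 10 genes highest in replicate 1 over replicate 3, at a mean of 5 CPM or more, MFAP5, a microfibril protein gene, had 11.2 and 4.22 CPM, a ratio of 2.66 (95% interval 2.19 to 3.26). COL3A1, a fibrillar collagen gene, had 16.7 and 6.63 CPM, a ratio of 2.52 (95% interval 2.15 to 2.96), and LOX, the collagen crosslinking enzyme gene, 34.5 and 15.4 CPM, a ratio of 2.24 (95% interval 2.01 to 2.49). COL11A1, LUM, COL12A1 and the collagen-binding integrin gene ITGA11 were also among the 10. Of 40 collagen genes at 1 CPM or more 34 were higher in replicate 1, where 48.8% of all genes were, and 8 of 40 were higher past 1.5-fold, where 1.75% of all genes were. None was higher in replicate 3 by over 1.5-fold, and the collagen ratios ran from 0.700 to 2.52. COL1A1 had a ratio of 1.66 (95% interval 1.59 to 1.74). Of 11 fibroblast markers at that level, which share COL1A1, COL1A2 and COL3A1 with the collagens, 10 were higher in replicate 1 and 4 past 1.5-fold, with VIM at a ratio of 1.26 (95% interval 1.24 to 1.28). Of the 12 fibroblast markers in all, 11 were on and only FAP was silent. Blood markers were at or near 0 in both libraries.

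Of 25 p53 targets 22 were higher in replicate 1 (88%, where 48.8% of all genes were). A single target, 1 of 25, was higher past 1.5-fold, where 1.75% of all genes were. That gene was CDKN1A, which encodes the p21 inhibitor of cyclin-dependent kinases, with 64.2 and 42.4 CPM, a ratio of 1.51 (95% interval 1.42 to 1.62). In the other direction, 15 of 80 ribosomal protein genes and 161 of 482 ZNF genes (33.4%) were higher in replicate 1, so most were higher in replicate 3. Core pluripotency factors were higher in replicate 1 in 4 of 18, S phase genes in 5 of 20 and G2/M genes in 6 of 20. No member of these 3 lists differed by over 1.5-fold. Few genes of any kind did: 2.40% of all genes, 0.532% of those at 10 to 100 CPM and 0.125% at 100 CPM or more. The lack of such members therefore does not set these lists apart. Among the 10 genes highest in replicate 3 were FOXB1, a forkhead factor gene, with 4.11 and 6.95 CPM, a ratio of 0.592 (95% interval 0.481 to 0.726), and CDX2, with 18.97 and 28.3 CPM, a ratio of 0.671 (95% interval 0.609 to 0.739). All 5 GATA genes that were on were higher in replicate 1, none of them by over 1.5-fold. Median log2 ratios moved with exon length, from -0.04 in the shortest of 10 equal groups of genes to 0.03 in the longest, and the part of length or of other steps in the list differences was not tested.

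**Figure D5:**
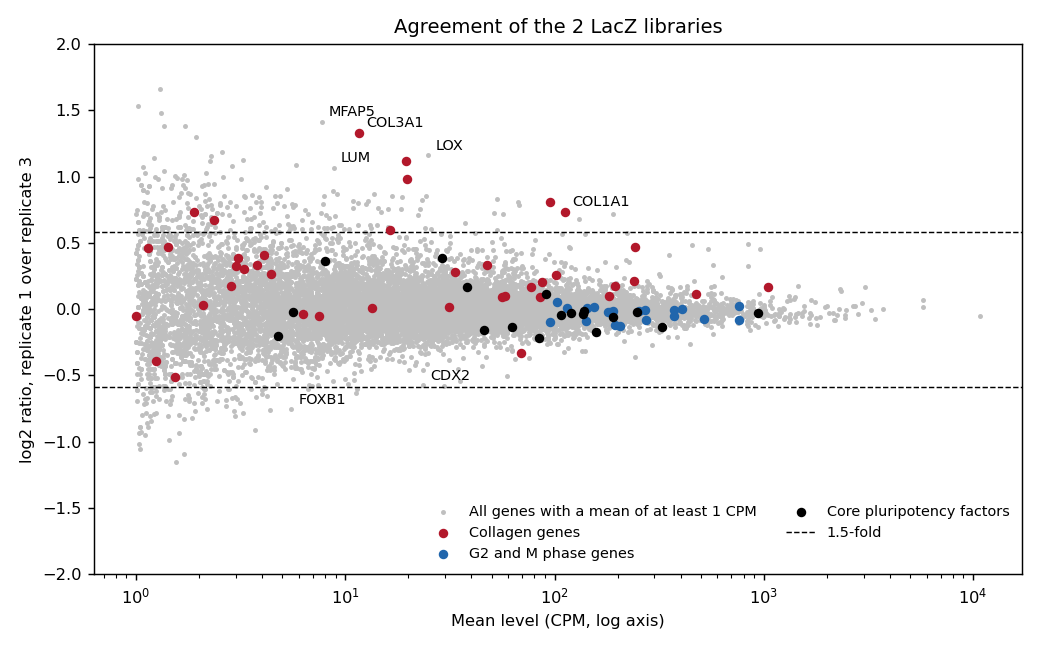
Log2 ratio of replicate 1 over replicate 3 against mean level (CPM, log axis) for the 13766 genes with a mean of at least 1 CPM, each point a gene, with dashed lines at 1.5-fold and 3 lists in colour. Of these genes 331 (2.40%) lie outside the lines. Above 0 lie 34 of 40 collagen genes and 48.8% of all genes. No core pluripotency factor or G2/M gene lies outside the lines.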

How the data were processed

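The values are read counts per gene, whole numbers that the authors deposited as 1 table per library, with no normalization, per the file headers. The submitters' processing notes name FastQC, the aligner STAR 2.7.6a and the build hg19 (GRCh37). Counting was done over exons per gene symbol with featureCounts of Subread 2.0.0 at strand setting 2 and 4 threads, per the file headers. The recorded command sets no option for reads with several hits or lying over more than 1 gene, and the default of that tool is to drop both kinds. In 348 genes the Length column adds up copies on alternate sequences, and POU5F1, AGER and NOTCH4 are among them.

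The labels put replicates 1 and 3 in the LacZ group. The members and the gene lists (37 by role and 17 by symbol) were chosen with earlier results of these data known. CPM scales each count by the library total (42538561 and 30338285) to a sum of 1000000. Intervals of ratios are exact, at 95%, from the counts. The dispersion came from edgeR 4.0.16 in R 4.3.3 with TMM scaling, fitted to the LacZ libraries with no group term, and was checked on simulated data. Symbols were matched to RefSeq for biotypes and promoters. Genes named were the 5 markers and BEND3, the 20 highest by CPM and by CPM per kb, up to 8 highest and 5 lowest members of each list, any ligand or receptor, and the 10 genes of highest and lowest ratio. Other genes named were picked with their values in view, and some genes are not reported here. The alternatives tried were other scalings, other thresholds for on and silent, other count filters, other lengths, and each library left out.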

Additional observations from a re-analysis of the deposited data

How the results depend on the processing

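Of 658 alternative values computed, 630 stayed within the limits set for their result, 28 moved and 0 reversed. TMM, DESeq2 (1.42.0) and upper-quartile scaling left all 324 list counts within those limits. Their factors ran only from 0.997 to 1.003 of the library totals. These 324 values, which are among the 630, therefore had almost no room to move and say little about robustness. The count of genes on was 13583, and ran from 12117 to 15378 over the other thresholds. The number of genes past 1.5-fold was 331 at a mean of 1 CPM or more, 2364 with no filter beyond 1 count in each library and 42 at a mean of 10 CPM or more, and 28 genes passed a fold of 2. The share of counts in the 100 highest genes was 16.8%, 15.9% without the single highest gene, and 16.7% to 16.8% with a library left out. With a library left out, the number of silent members ran from 0 to 1 for streak and mesoderm factors, TGF-beta superfamily receptors, NOTCH ligands, nuclear receptors and SOX genes. It ran from 1 to 2 for endothelial markers, BMP ligands and antagonists, ligands of tyrosine kinase receptors and T-box genes, and from 4 to 5 for WNT ligands, against 3 with both. The coefficient of variation was between 5.27% and 5.78%. No paired analysis was possible because a single group of libraries was described and no group comparison was made. At a mean of 1 to 2 CPM 14% of genes differed by over 1.5-fold between the libraries, and the part of depth in this was not tested.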

Other observations

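The short arm of chromosome 12, whose gain is a common feature of germ cell tumours, was looked at after its genes had been seen among the highest. Its 361 genes (those ending before position 35000000 on hg19) made up 1.37% of all genes and held 4.49% and 4.54% of the counts in replicates 1 and 3. Without GAPDH the remaining 360 genes held 3.43% and 3.44%. Of the 361 genes 59.8% were on, where 51.5% of all genes were, and the median level of those on was 11.9 CPM per kb, against 7.86 over all genes on. Other regions came close: 58.4% of genes were on over chromosome 12 as a whole and 57.8% on chromosome 16, and the median of those on was 11.1 CPM per kb on chromosomes 1 and 20. The share on and the median do not set the arm apart from these, but chromosome 12 as a whole includes the arm. Relative to the share of genes, the share of counts was higher on the arm, with or without GAPDH, than on chromosomes 1, 16 and 20. The arm was picked because its genes stood among the highest, so its share of counts cannot set it apart either. The share without GAPDH still includes LDHB, SLC2A3 and TPI1, at means of 3242, 2349 and 1515 CPM. Chromosome 1 made up 9.98% of genes and held 13.5% of the counts in each replicate. Chromosome 16 made up 4.04% and held 4.56% and 4.61%, and chromosome 20 made up 2.79% and held 2.44% in each. No arm of another chromosome was compared. Named members of the arm were the lactate dehydrogenase gene LDHB at 2024 and 2029 CPM per kb, the triosephosphate isomerase gene TPI1 at 807 and 826, the glucose transporter gene SLC2A3 at 624 and 569, the ligand gene GDF3 at 249 and 259 and NANOG at 50.4 and 52.1. The surface antigen gene CD9 had 255 and 259 CPM per kb, the cyclin gene CCND2 95.6 and 94.7 and the transaminase gene BCAT1 142 and 133. Copy number was not measured here, and its part in these levels was not tested.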
